A study of Mus musculus with 10 samples.

Results

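The collagen gene family was examined in the hippocampus of mice treated to ablate the lymphatic vessels of the meninges. The family was taken as every protein-coding gene with a symbol of the form Col, a number, the letter a and a number. The annotation (GENCODE M21, mouse build mm10) holds 44 such genes, and all 44 are among the 28871 genes of the deposited table. All 44 also passed edgeR's filter on low counts, 43 of them in every sample and Col6a5 with 3 Visudyne and 3 vehicle samples above the cutoff. Visudyne, an injectable form of the photosensitizer verteporfin, was injected into the cisterna magna, the fluid space behind the cerebellum, and activated with red light of 689 nm shone through the intact skull. The comparison asks how the hippocampus responds when the drainage of the meninges is impaired. There were 5 Visudyne samples (sample numbers 3, 6, 9, 12 and 15) and 5 vehicle samples (1, 4, 7, 10 and 13), all from male, wild-type C57BL/6J mice aged 2 months. Both groups underwent injection and light, both had the procedure a second time 2 weeks after the first, and the whole hippocampus was taken 2 weeks after the last one. The 10 samples include none with Visudyne but no light, so that the drug and its activation cannot be told apart. The labels do not say that each sample is a separate animal, and the spread below is that between samples.

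Collagens are trimers of polypeptide chains that wind around each other in a triple helix, and each chain has its own gene. Fibrillar collagens build the cables of connective tissue, and FACIT collagens decorate the surface of those cables. Network collagens form sheets or meshes, such as those of basement membranes. Microfibrillar collagens form beaded filaments around cells, transmembrane collagens are anchored in the cell membrane, and multiplexins are basement membrane collagens with long interrupted helices. Healthy brain tissue holds little fibrillar collagen. Most of it is made by fibroblasts of the meninges and of the sheaths of larger vessels, while type IV collagen lines all brain capillaries and a few collagens are made by neurons.

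Levels are given as CPM, counts relative to the library total after TMM scaling, and are listed per sample in the order of sample numbers given above. The libraries held between 51165271 and 68895223 estimated counts, with no detectable difference in depth between the groups (exact two-sided permutation test, p = 0.516, n = 5 each). Collagen genes took 0.0369% to 0.0476% of the counts in Visudyne samples and 0.033% to 0.0372% in vehicle samples. Markers of hippocampal neurons were present in every sample, with sums over 8 genes of 675 to 749 CPM in Visudyne samples and 699.7 to 784 CPM in vehicle samples. In whole tissue, fewer cells of a type and less RNA per cell cannot be told apart.

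The collagens of highest level per length were not the type I and III chains of connective tissue. Per kilobase of merged exons, and as a mean over all 10 samples, Col25a1 was highest at 5.90 CPM per kilobase. It encodes a transmembrane collagen of neurons whose shed part is found in amyloid plaques. Col4a2, a chain of the main basement membrane collagen, followed at 5.66 CPM per kilobase. Next came Col6a1 (3.56), the fibrillar Col11a2 (3.48), Col19a1 (3.14), a FACIT collagen known from interneurons, and Col4a1 (3.03), all in CPM per kilobase. The type I chains Col1a1 (2.09) and Col1a2 (2.03) stood at ranks 8 and 9 of 44. Lowest was Col6a5, at 0.0225 CPM per kilobase. The order depends on the length used: per kilobase of the longest coding sequence, a scale added after the values were seen, Col25a1 and Col4a2 kept the first 2 ranks and Col1a2 moved to rank 4, since its merged exons are 12426 bases long and its coding sequence 4116.

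**Figure D1:**
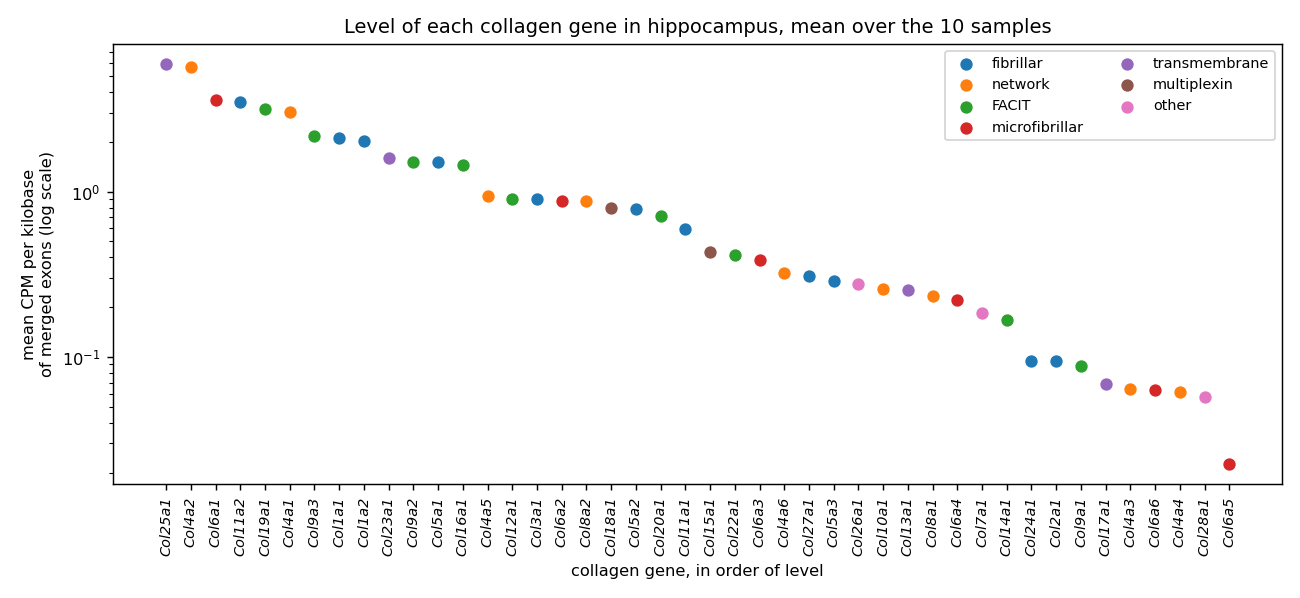
Mean level of each of the 44 collagen genes over all 10 samples, in CPM per kilobase of merged exons on a log scale, in descending order and coloured by class. Col25a1 and Col4a2 lead at 5.90 and 5.66 CPM per kilobase, and Col6a5 is lowest at 0.0225.

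Between the groups, the collagens that differed most were the type I and III fibrillar chains, the FACIT chain Col12a1, the microfibrillar Col6a2 and the network chain Col10a1. The family was chosen with these differences known, so its fold changes are a description and not a test of the family. Of the 44 genes, 3 passed the threshold of the edgeR fit over all 19093 genes tested (adjusted p under 0.05). All were higher with Visudyne: Col12a1, Col1a1 and Col6a2. The adjusted edgeR p was 0.0084 for Col12a1, and 0.0485 for both Col1a1 and Col6a2, close to the threshold. In the background of that fit, 0.021% of all genes were called higher, which is 4 genes. At an unadjusted edgeR p under 0.05, 11 collagens were higher and 0 lower, against 1.14% of all genes higher and 0.56% lower. After adjustment 0 collagens and 0% of all genes were called lower by edgeR, and 0 collagens were called lower by DESeq2 or limma voom. In 5 collagens every Visudyne value exceeded every vehicle value, against 0.319% of all genes tested. These were the 3 called genes with Col1a2 and Col3a1. A log2 fold change of at least 0.5 was found in 9 collagens, against 2.56% of all genes, and a fold change above 0 in 29, against 51.1% of all genes. The median log2 fold change was 0.10 for the family and 0.0022 for all genes tested. Summed over the family, collagen mRNA came to 409.8 ± 31.8 CPM in Visudyne samples and 352 ± 18.1 CPM in vehicle samples (SD, n = 5 each), with a lowest Visudyne value of 381.3 CPM and a highest vehicle value of 380.2 CPM.

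**Figure D2:**
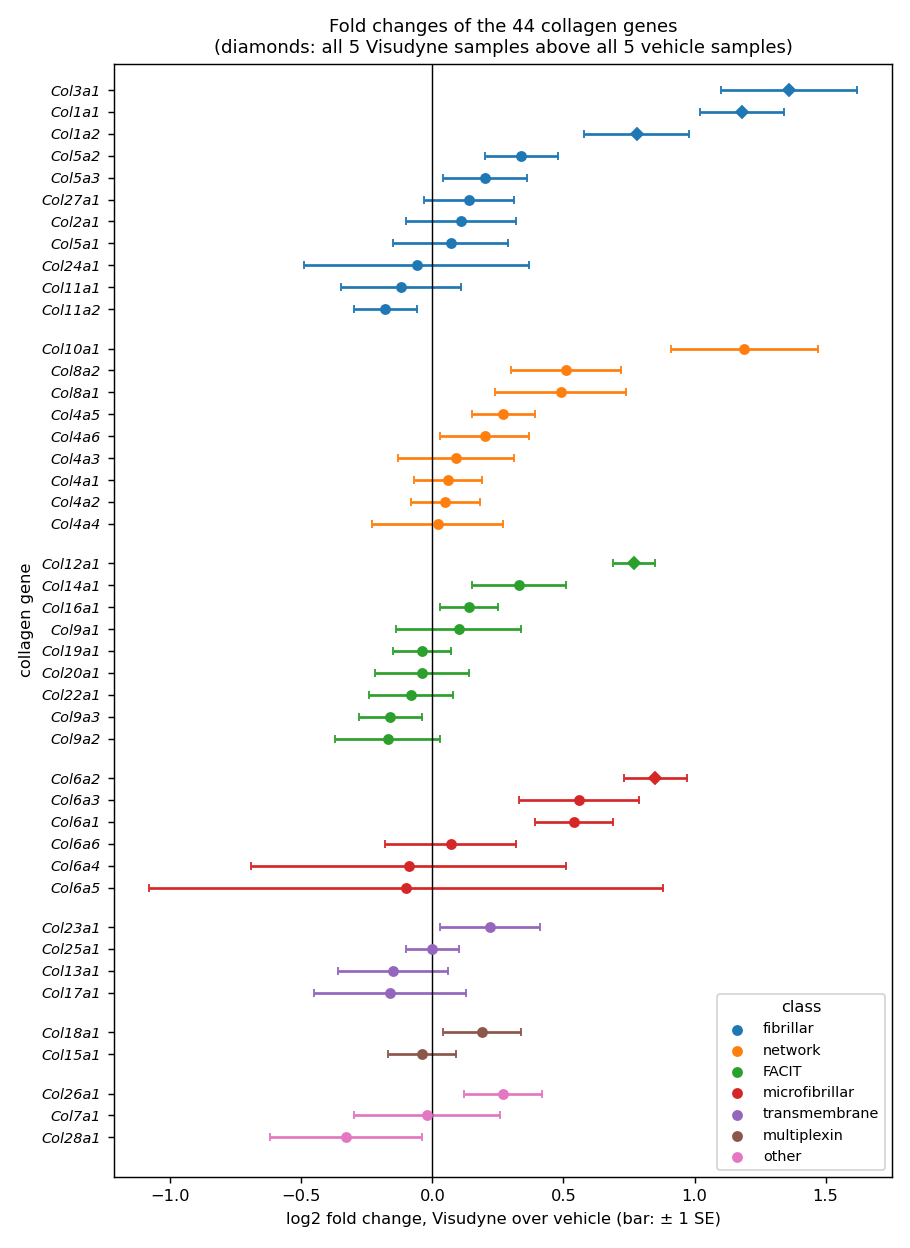
Log2 fold change of each collagen gene, Visudyne over vehicle, with 1 SE to each side, grouped and coloured by class and ordered within it. Diamonds mark the 5 genes whose groups do not overlap, and the values run from -0.33 for Col28a1 to 1.36 for Col3a1.

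Which genes were called changed when single samples were left out. No collagen was called in fits that lacked Visudyne 3, Visudyne 6 or vehicle 7, in which 0 genes of the whole table were called. At an unadjusted p under 0.05, 9, 9 and 10 collagens were higher there, against 1.07%, 0.963% and 0.987% of all genes. Col12a1 missed the threshold narrowly in these fits, with an adjusted edgeR p of 0.0513, 0.0556 and 0.0621 in that order. Its log2 fold change there was 0.75, 0.77 and 0.77. Col12a1 was the only collagen called in the fits that lacked Visudyne 9, Visudyne 12, Visudyne 15, vehicle 10 or vehicle 13, and it was the only gene called higher in the whole table (0.00519%, 0.00515%, 0.0052%, 0.00515% and 0.00522% of the genes tested). The fit that lacked vehicle 1 called Col12a1 and Col1a1, and the fit that lacked vehicle 4 called all 3 collagens, each with 0.0207% of all genes called higher. The fold changes moved less: over 18 alternatives the log2 fold change was 0.73 to 0.85 for Col12a1, 1.08 to 1.31 for Col1a1 and 0.79 to 0.93 for Col6a2. By DESeq2, 5 collagens were called, the same 3 with Col3a1 and Col1a2, against 0.0943% of all genes called higher. Limma voom with sample quality weights called the 3 and Col3a1 (0.0681% of all genes), and a covariate for the sample number gave the same 5 as DESeq2 (0.0995% of all genes). With upper-quartile factors Col12a1 alone was called (0.0105% of all genes), and with no filter on low counts the 3 were called (0.0139% of 28871 genes).

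The promoter stretches of the 4 collagens of highest fold change that have an entry in the RefSeq promoter table (GRCm38.p6, which has the coordinates of mm10) are shown so that the sequences before these genes can be compared. They are Col3a1 at chr1:45311288-45311537 (plus strand), Col10a1 at chr10:34389731-34389980 (plus strand), Col6a2 at chr10:76623631-76623880 (minus strand) and Col1a2 at chr6:4505370-4505492 (plus strand). Each ends at or before its annotated start and was trimmed to bases outside annotated exons. Capitals mark the letters TATAAA of the TATA box, CCAAT of the CCAAT box or GGGCGG of the GC box, read on either strand. The Col1a2 stretch precedes the RefSeq start, which lies downstream of the first start GENCODE gives.
Col3a1: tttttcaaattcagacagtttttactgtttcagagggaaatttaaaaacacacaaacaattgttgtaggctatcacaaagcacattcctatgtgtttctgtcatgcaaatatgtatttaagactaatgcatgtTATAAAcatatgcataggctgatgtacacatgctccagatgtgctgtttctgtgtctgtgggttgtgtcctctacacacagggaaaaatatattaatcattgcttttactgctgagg
Col10a1: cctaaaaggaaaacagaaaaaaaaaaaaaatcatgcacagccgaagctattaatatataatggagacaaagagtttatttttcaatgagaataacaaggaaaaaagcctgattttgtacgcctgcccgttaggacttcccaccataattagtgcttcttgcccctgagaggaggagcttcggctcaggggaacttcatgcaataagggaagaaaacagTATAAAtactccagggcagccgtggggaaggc
Col6a2: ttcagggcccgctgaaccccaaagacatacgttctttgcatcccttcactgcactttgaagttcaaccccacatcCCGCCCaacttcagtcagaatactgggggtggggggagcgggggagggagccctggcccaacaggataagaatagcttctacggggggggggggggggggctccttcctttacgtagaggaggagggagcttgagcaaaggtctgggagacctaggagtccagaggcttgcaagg
Col1a2: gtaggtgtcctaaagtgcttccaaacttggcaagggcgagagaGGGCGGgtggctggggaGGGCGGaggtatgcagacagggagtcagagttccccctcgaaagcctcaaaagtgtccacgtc
None of the 3 motifs was present in all 4 stretches. The Col10a1 stretch has TATAAA 32 bases before its start, and the Col3a1 stretch has it 117 bases before its start. The printed stretches of Col6a2 and Col1a2 hold GGGCGG, once and 2 times. The trimming left 123 bases of the Col1a2 window and so removed a CCAAT 109 bases before its start. A second Col6a2 start in the table, at 76623404, has a window that is not printed and holds GGGCGG 67, 15 and 11 bases before it. Their GC content was 35.2% for Col3a1, 41.6% for Col10a1, 59.2% for Col6a2 and 59.3% for Col1a2. Over the 250 bases before each start, 35 members had an entry, in 38 windows. TATAAA was present in 13.2% of these 38 windows, against 12.4% of 32851 windows of all genes. CCAAT was present in 34.2% of the collagen windows against 33.8% of all windows, and GGGCGG in 57.9% of the collagen windows against 32.7% of all windows. The median GC content was 59% in the collagen windows and 52.4% in all windows, and GGGCGG holds only G and C. How much of the GGGCGG difference goes with GC content was not tested. Members without an entry were Col1a1, Col2a1, Col4a3, Col5a2, Col9a3, Col12a1, Col14a1, Col22a1 and Col26a1. A match of letters does not show a site in use.

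Type I collagen, the main cable of skin, bone and meninges, has chains from Col1a1 (ENSMUSG00000001506, chromosome 11, 94936224 to 94953042, plus strand) and Col1a2 (ENSMUSG00000029661, chromosome 6, 4504814 to 4541544, plus strand). Col1a1 measured 18.4, 22.4, 20.5, 16.1 and 17.7 CPM in Visudyne samples, against 10.4, 11.2, 7.89, 6.78 and 5.86 CPM in vehicle samples. The lowest Visudyne value lies above the highest vehicle value, and means were 19.0 ± 2.47 CPM in Visudyne samples and 8.42 ± 2.30 CPM in vehicle samples (SD, n = 5 each; log2 fold change 1.18, SE 0.16). Col1a2 measured 35.4, 33.8, 31.3, 29.8 and 29.4 CPM in Visudyne samples, against 25.03, 25.5, 15.3, 16.9 and 10.5 CPM in vehicle samples. The groups do not overlap either, but vehicle 1 and vehicle 4 came closest to the lowest Visudyne sample and vehicle 13 was far lower (log2 fold change 0.78, SE 0.20). Type III collagen, made from Col3a1 alone (ENSMUSG00000026043, chromosome 1, 45311538 to 45349706, plus strand), accompanies type I in distensible tissue. Col3a1 measured 13.3, 14.9, 14.0, 12.5 and 8.50 CPM in Visudyne samples, against 7.40, 6.78, 3.70, 4.29 and 2.46 CPM in vehicle samples. This was the largest fold change of the family (log2 fold change 1.36, SE 0.26), and Visudyne 15 was the sample nearest to the vehicle range. Col1a2 and Col3a1 were not called by edgeR. In all 3 genes vehicle 1 and vehicle 4 were the highest vehicle samples.

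The other fibrillar chains differed less. Col5a2, a chain of the type V collagen that sets the width of type I fibrils, stands next to Col3a1 on chromosome 1, 24614 bases away with no protein-coding gene between them. Col5a2 measured 7.38, 11.3, 7.61, 6.45 and 9.03 CPM in Visudyne samples, against 6.49, 7.34, 6.91, 5.40 and 6.80 CPM in vehicle samples. Visudyne 12 lay inside the vehicle range and Visudyne 6 was highest (log2 fold change 0.34, SE 0.14). Col5a1 measured 13.4, 17.3, 11.8, 7.79 and 15.5 CPM in Visudyne samples, against 11.95, 17.4, 11.3, 8.01 and 14.2 CPM in vehicle samples. This main chain of type V collagen had groups that overlap fully (log2 fold change 0.07, SE 0.22). Col5a3, a minor chain, averaged 2.08 ± 0.268 CPM in Visudyne samples and 1.82 ± 0.376 CPM in vehicle samples (SD, n = 5 each; log2 fold change 0.20, SE 0.16).

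Col11a2, a chain of the type XI collagen of cartilage, was the fibrillar chain of highest level per kilobase. Col11a2 measured 21.3, 26.5, 18.3, 19.4 and 26.8 CPM in Visudyne samples, against 23.9, 28.3, 24.6, 21.2 and 28.8 CPM in vehicle samples. It was lower on average with Visudyne, within overlapping ranges (log2 fold change -0.18, SE 0.12). Col11a1 measured 6.95, 9.01, 6.02, 4.29 and 9.78 CPM in Visudyne samples, against 4.76, 9.45, 8.90, 6.50 and 9.69 CPM in vehicle samples. The groups of this partner chain overlap as well (log2 fold change -0.12, SE 0.23). Col2a1 measured 0.674, 1.07, 0.844, 0.938 and 1.01 CPM in Visudyne samples, against 0.895, 0.889, 0.874, 0.534 and 0.998 CPM in vehicle samples. In this collagen of cartilage, whose chain also joins type XI trimers, vehicle 10 was low and the groups overlap. Col2a1, Col24a1 and Col27a1, the last pair known from developing bone and cartilage, had log2 fold changes of 0.11, -0.06 and 0.14, each below its SE. Of the 11 fibrillar genes, 1 was called (0.021% of all genes were called higher) and 8 had a positive fold change (51.1% of all genes). In 3 fibrillar genes every Visudyne value exceeded every vehicle value, against 0.319% of all genes. The sum over the 11 genes was 123 ± 14.7 CPM in Visudyne samples and 91.6 ± 15.04 CPM in vehicle samples. Vehicle 4 (114.5 CPM) lay inside the Visudyne range.

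Among FACIT collagens 1 of 9 genes was called, Col12a1, where 0.021% of all genes were called higher. Col12a1 (ENSMUSG00000032332, chromosome 9, 79598991 to 79718831, minus strand) encodes a long fibril-bound collagen found in dense connective tissue under load. Col12a1 measured 18.2, 17.6, 19.1, 16.6 and 14.6 CPM in Visudyne samples, against 10.8, 10.3, 10.1, 8.78 and 10.4 CPM in vehicle samples. The 5 vehicle values are close together, all Visudyne values lie above them, and Col12a1 had the smallest SE of the family (log2 fold change 0.77, SE 0.08). Means were 17.2 ± 1.75 CPM in Visudyne samples and 10.1 ± 0.762 CPM in vehicle samples (SD, n = 5 each). The related Col14a1 had low values, 1.30 ± 0.225 CPM in Visudyne samples and 1.04 ± 0.174 CPM in vehicle samples, with overlapping groups (log2 fold change 0.33, SE 0.18).

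Col19a1 was the FACIT gene of highest level per kilobase. Col19a1 measured 20.7, 24.3, 20.99, 17.1 and 23.6 CPM in Visudyne samples, against 17.7, 25.6, 22.8, 19.6 and 23.7 CPM in vehicle samples. Its groups overlap fully (log2 fold change -0.04, SE 0.11). Col9a3, a chain of the type IX collagen of cartilage and eye, shares 234 exon bases (6.07%) with Tcfl5 on the opposite strand. Col9a3 measured 7.601, 7.001, 7.32, 9.84 and 7.91 CPM in Visudyne samples, against 9.23, 9.06, 10.7, 7.22 and 8.11 CPM in vehicle samples. Vehicle 7 was its highest sample, and the log2 fold change of -0.16 (SE 0.12) was -0.08 without it. Col9a2 measured 5.70, 3.88, 4.30, 3.64 and 4.62 CPM in Visudyne samples, against 6.79, 6.55, 3.95, 4.01 and 3.55 CPM in vehicle samples. Col9a1 measured 0.415, 0.446, 0.354, 0.667 and 0.436 CPM in Visudyne samples, against 0.495, 0.444, 0.497, 0.297 and 0.428 CPM in vehicle samples. These partner chains of Col9a3 overlap between the groups, Col9a1 at low levels. Col9a1 and Col9a2 had log2 fold changes of 0.10 and -0.17, both below their SE. Col16a1 (0.14), Col20a1 (-0.04) and Col22a1 (-0.08) also had groups that overlap. The class sum was 70.3 ± 5.18 CPM in Visudyne samples and 64.2 ± 5.76 CPM in vehicle samples.

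Type VI collagen forms beaded filaments around fibroblasts, vessels and nerves, from chains of Col6a1, Col6a2 and Col6a3. Col6a2 (ENSMUSG00000020241, chromosome 10, 76595762 to 76623630, minus strand) and Col6a1 (ENSMUSG00000001119, chromosome 10, 76708792 to 76726168, minus strand) lie 85161 bases apart on the same strand. Col6a2 measured 10.2, 11.0, 9.32, 8.20 and 8.19 CPM in Visudyne samples, against 5.72, 6.18, 4.49, 5.20 and 4.42 CPM in vehicle samples. All Visudyne samples exceeded all vehicle samples, with means of 9.38 ± 1.23 CPM in Visudyne samples and 5.20 ± 0.767 CPM in vehicle samples (SD, n = 5 each; log2 fold change 0.85, SE 0.12). Col6a1 measured 16.4, 26.0, 14.7, 15.5 and 19.5 CPM in Visudyne samples, against 12.9, 11.0, 11.8, 15.9 and 12.02 CPM in vehicle samples. Visudyne 6 stood above the others, and vehicle 10 lay inside the Visudyne range (log2 fold change 0.54, SE 0.15, and 0.38 without Visudyne 6). Col6a3 measured 5.25, 4.46, 4.20, 7.70 and 6.01 CPM in Visudyne samples, against 3.59, 5.74, 2.36, 2.93 and 4.02 CPM in vehicle samples. Only vehicle 4 reached the Visudyne range, and Visudyne 12 was highest (log2 fold change 0.56, SE 0.23). Each of these 3 chains was higher on average with Visudyne, and only Col6a2 was called by edgeR.

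The chains Col6a4, Col6a5 and Col6a6, neighbours on chromosome 9 that can stand in for the Col6a3 chain, had overlapping groups. Col6a4 measured 3.70, 1.74, 1.96, 0.415 and 1.27 CPM in Visudyne samples, against 0.224, 2.18, 1.01, 2.95 and 3.31 CPM in vehicle samples. It varied widely in both groups (log2 fold change -0.09, SE 0.60). Col6a5 measured 0.518, 0.0140, 0.270, 0.234 and 0 CPM in Visudyne samples, against 0.256, 0.425, 0, 0 and 0.396 CPM in vehicle samples. Col6a5 had at most 30 counts in any sample and 0 counts in Visudyne 15, vehicle 7 and vehicle 10, where 3 counts, the upper limit that a count of 0 allows, would be 0.0523, 0.0596 and 0.0593 CPM. That limit covers counting error only. Col6a6 measured 0.708, 0.642, 0.506, 0.397 and 0.697 CPM in Visudyne samples, against 0.479, 0.734, 0.675, 0.356 and 0.570 CPM in vehicle samples. Its groups overlap (log2 fold change 0.07, SE 0.25). The 6 microfibrillar genes summed to 36.0 ± 5.02 CPM in Visudyne samples and 24.4 ± 2.75 CPM in vehicle samples, and all 5 Visudyne sums (30.9 CPM or more) lay above all vehicle sums (27.3 CPM or less).

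The basement membrane collagens of capillaries differed little. Col4a1 (ENSMUSG00000031502, chromosome 8, 11198423 to 11312826, minus strand) and Col4a2 (ENSMUSG00000031503, chromosome 8, 11312805 to 11449287, plus strand) lie head to head and share 22 exon bases on opposite strands. Col4a1 measured 24.6, 26.4, 20.7, 18.2 and 25.5 CPM in Visudyne samples, against 26.9, 18.4, 25.6, 18.4 and 21.2 CPM in vehicle samples. Col4a2 measured 35.1, 46.9, 36.2, 26.6 and 45.8 CPM in Visudyne samples, against 33.98, 39.4, 37.7, 32.4 and 40.4 CPM in vehicle samples. In both genes the groups overlap and the fold change is below its SE (log2 fold change 0.06, SE 0.13 for Col4a1, log2 fold change 0.05, SE 0.13 for Col4a2). Col4a3 and Col4a4, chains of kidney and lung basement membranes, were below 1 CPM in every sample and had log2 fold changes of 0.09 and 0.02. Col4a5 and Col4a6, head to head on the X chromosome and known from epithelial and smooth muscle basement membranes, had 0.27 (SE 0.12) and 0.20 (SE 0.17), with overlapping groups in both. Markers of brain endothelium summed to 173 to 210.1 CPM in Visudyne samples and 173 to 217 CPM in vehicle samples, and 0 of 10 were called by edgeR (0 at an unadjusted p under 0.05, 0 by DESeq2 and 0 by limma voom).

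The short-chain network collagens gave larger differences at low levels. Col10a1 (ENSMUSG00000039462, chromosome 10, 34389981 to 34397085, plus strand) encodes type X collagen, known from the growth plate of bone. It fell outside the rule for genes given per sample and was added after its values were seen. Col10a1 measured 0.587, 1.41, 1.43, 0.865 and 1.32 CPM in Visudyne samples, against 0.304, 0.580, 0.596, 0.554 and 0.444 CPM in vehicle samples. Its counts ran from 19 to 101 per sample, and Visudyne 3 alone lay inside the vehicle range (log2 fold change 1.19, SE 0.28; not called). Col8a1 and Col8a2 encode type VIII collagen, a sheet under endothelium and the corneal lining. Col8a2 measured 4.595 ± 1.24 CPM in Visudyne samples and 3.23 ± 0.818 CPM in vehicle samples (log2 fold change 0.51, SE 0.21) and Col8a1 2.13 ± 0.361 CPM in Visudyne samples and 1.52 ± 0.564 CPM in vehicle samples (log2 fold change 0.49, SE 0.25), with overlapping groups. Vehicle 7 was the highest vehicle sample for both, and without it their log2 fold changes were 0.63 and 0.67. Without vehicle 13, the lowest, they were 0.38 and 0.31. All 9 network genes had fold changes above 0, by as little as 0.02, against 51.1% of all genes. By edgeR, DESeq2 or limma voom 0 of the 9 were called. At an unadjusted edgeR p under 0.05 there were 3 higher, against 1.14% of all genes.

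Transmembrane collagens overlapped between the groups in all 4 genes. Col25a1 measured 70.1, 71.8, 67.8, 97.9 and 74.6 CPM in Visudyne samples, against 72.9, 69.2, 79.6, 88.5 and 71.7 CPM in vehicle samples. The groups of this neuronal collagen overlap and its mean levels are nearly equal (log2 fold change 0.00, SE 0.10), although Visudyne 12 stood well above the rest. Of the other transmembrane collagens, Col23a1 (log2 fold change 0.22, SE 0.19) and Col13a1 (log2 fold change -0.15, SE 0.21), and the epithelial Col17a1 (log2 fold change -0.16, SE 0.29) had overlapping groups as well. Col23a1 measured 9.47, 13.3, 6.68, 10.4 and 9.25 CPM in Visudyne samples, against 11.2, 8.15, 7.57, 9.65 and 5.54 CPM in vehicle samples. Its highest sample was Visudyne 6 and its lowest vehicle 13. The transmembrane sum was 87.8 ± 12.9 CPM in Visudyne samples and 86.5 ± 8.52 CPM in vehicle samples.

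The multiplexin Col18a1, a vascular basement membrane collagen and the source of endostatin, overlapped between the groups. Col18a1 measured 6.46, 6.76, 5.52, 4.65 and 6.19 CPM in Visudyne samples, against 6.36, 5.85, 5.22, 4.82 and 3.69 CPM in vehicle samples. Vehicle 13 was its lowest sample (log2 fold change 0.19, SE 0.15). Col15a1 measured 2.73, 2.72, 2.50, 2.24 and 3.21 CPM in Visudyne samples, against 2.59, 2.80, 3.06, 2.29 and 3.06 CPM in vehicle samples. This second multiplexin showed no separation either (log2 fold change -0.04, SE 0.13). Col26a1 measured 2.42, 2.94, 2.14, 2.04 and 2.82 CPM in Visudyne samples, against 1.77, 2.71, 1.89, 1.96 and 1.98 CPM in vehicle samples. Col7a1 measured 1.47, 2.58, 2.01, 0.992 and 2.42 CPM in Visudyne samples, against 1.18, 2.43, 2.42, 1.34 and 2.23 CPM in vehicle samples. Both overlap between the groups. Of these, Col26a1 had a log2 fold change of 0.27 (SE 0.15) and the anchoring fibril gene Col7a1 had -0.02 (SE 0.28), while the minor collagen Col28a1 had a log2 fold change of -0.33 (SE 0.29) and overlapping groups.

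**Figure D3:**
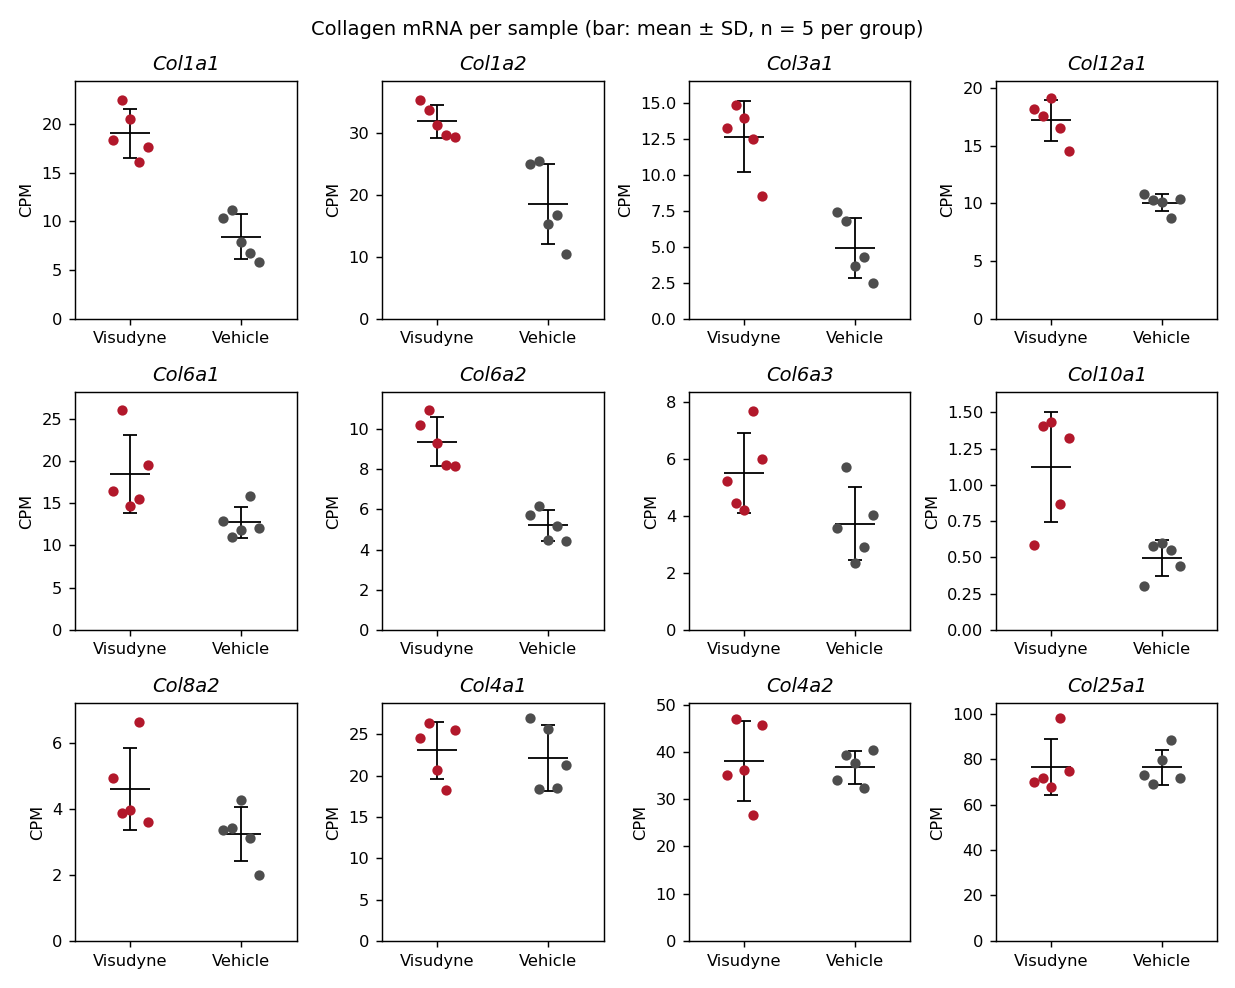
CPM of 12 collagen genes in each of the 5 Visudyne and 5 vehicle samples (points, left to right by sample number), with the mean and SD. Col1a1, Col1a2, Col3a1, Col12a1 and Col6a2 separate the groups, while Col4a1, Col4a2 and Col25a1 overlap.

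The ratios between chains that share a trimer overlapped between the groups. The ratio of Col1a1 to Col1a2 counts was 0.597 ± 0.0653 in Visudyne samples and 0.466 ± 0.0682 in vehicle samples (SD, n = 5 each), with ranges of 0.519 to 0.664 in Visudyne samples and 0.402 to 0.560 in vehicle samples, which overlap. For Col4a1 to Col4a2 it was 0.615 ± 0.0710 in Visudyne samples and 0.606 ± 0.130 in vehicle samples, nearly equal. For Col6a2 to Col6a1 it was 0.526 ± 0.105 in Visudyne samples and 0.416 ± 0.0910 in vehicle samples, and for Col6a3 to Col6a1 0.316 ± 0.116 in Visudyne samples and 0.304 ± 0.136 in vehicle samples, both with overlapping ranges. These ratios are of counts and are not corrected for length, so they compare samples and not chains.

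The genes that modify, process, crosslink, bind and cleave collagen were taken from lists of 60 genes, 58 of them tested. By edgeR and by limma voom without weights, 0 were called. At an unadjusted edgeR p under 0.05, 11 were higher and 1 lower, against 1.14% and 0.56% of all genes. DESeq2 called 3, Lox, Fn1 and Mrc2, against 0.0943% of all genes called higher. Limma voom with sample quality weights called Lox (0.0681% of all genes). The fit with the sample number as covariate called Lox, Bgn, Fn1 and Mrc2 (0.0995% of all genes). Over all genes tested, 51.1% had a fold change above 0, and in 0.319% every Visudyne value exceeded every vehicle value.

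Enzymes and chaperones that modify and fold collagen chains were close to even, with 11 of 20 above 0 and a median log2 fold change of 0.02. The 3 of smallest p were the prolyl hydroxylase subunits P4ha3 (log2 fold change 0.46, SE 0.16) and P4ha2 (log2 fold change 0.16, SE 0.13) and the collagen chaperone Serpinh1 (log2 fold change 0.23, SE 0.11). Among 8 genes of propeptide processing (5 above 0, median 0.03), the procollagen N-proteinase gene Adamts2 measured 11.9 ± 1.01 CPM in Visudyne samples and 9.45 ± 0.867 CPM in vehicle samples (log2 fold change 0.33, SE 0.08), with no overlap between the groups. Pcolce, an enhancer of C-propeptide removal, had a log2 fold change of 0.30 (SE 0.20), and Pcolce2 had -0.18 (SE 0.08).

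The 5 lysyl oxidase genes, which crosslink collagen and elastin, were all above 0, with a median of 0.47. Lox measured 1.28, 1.45, 1.52, 1.23 and 0.819 CPM in Visudyne samples, against 0.511, 0.657, 0.219, 0.435 and 0.285 CPM in vehicle samples. The groups do not overlap in Lox, at low levels (log2 fold change 1.58, SE 0.29; not called by edgeR, called by DESeq2). Loxl1 had a log2 fold change of 0.31 (SE 0.11) and Loxl2 had 0.49 (SE 0.19). All 10 genes of fibril-associated proteins were above 0 (median 0.29). Those of smallest p were fibronectin (Fn1, log2 fold change 0.64, SE 0.14), the proteoglycan gene Bgn (log2 fold change 0.52, SE 0.15) and Thbs2 (log2 fold change 0.40, SE 0.14). Bgn, Dcn and Lum are also on the fibroblast marker list, so the 2 lists are not separate. Of 10 collagen receptors 6 were above 0 (median 0.05). Mrc2 measured 11.3, 9.01, 9.47, 7.91 and 8.64 CPM in Visudyne samples, against 7.44, 7.19, 4.41, 5.38 and 4.44 CPM in vehicle samples. In Mrc2, an endocytic collagen receptor, the groups do not overlap (log2 fold change 0.68, SE 0.16). The receptor tyrosine kinase Ddr2 had a log2 fold change of 0.61 (SE 0.30), and the integrin subunit Itga10 had 0.53 (SE 0.19). Of 5 collagen-cleaving proteases tested all were above 0, with Mmp2 at a log2 fold change of 0.41 (SE 0.16), Mmp14 at a log2 fold change of 0.18 (SE 0.14) and Ctsk at a log2 fold change of 0.27 (SE 0.17).

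Markers of fibroblasts of the meninges and of vessel sheaths, a list that holds no collagen, were mostly higher on average with Visudyne as well. Of 21 markers 20 were tested, 18 had a positive fold change (median 0.29, against 51.1% of all genes above 0), and none was at 0 in any sample. By edgeR and by limma voom without weights 0 were called. At an unadjusted edgeR p under 0.05 there were 7 higher and 0 lower (1.14% and 0.56% of all genes). DESeq2 called Mgp and Slc47a1 higher (0.0943% of all genes), as did limma voom with sample quality weights (0.0681% of all genes). The fit with the sample number as covariate called Mgp, Slc47a1 and Bgn (0.0995% of all genes). The summed markers came to 192, 184, 157, 163 and 164 CPM in Visudyne samples, against 177, 157, 126, 153 and 80.3 CPM in vehicle samples. Vehicle 1 and vehicle 4 thus lay inside the Visudyne range, and vehicle 13 was the lowest of all samples. Dcn and Igf2 contributed most CPM to the sum, and 3 other markers separated the groups as 5 of the collagens did. Of all genes tested, 0.319% had every Visudyne value above every vehicle value. Mgp, a matrix protein that binds calcium, measured 14.4, 12.4, 12.6, 11.99 and 9.36 CPM in Visudyne samples, against 9.19, 8.06, 4.49, 5.97 and 4.42 CPM in vehicle samples (log2 fold change 0.92, SE 0.20). Slc47a1, an exporter of organic cations, measured 5.01, 4.46, 3.95, 4.07 and 3.61 CPM in Visudyne samples, against 1.74, 2.49, 0.656, 0.534 and 0.507 CPM in vehicle samples (log2 fold change 1.83, SE 0.39). The transcription factor gene Foxc2 had a log2 fold change of 1.43 (SE 0.34), at 0.879 to 1.81 CPM in Visudyne samples and 0.238 to 0.831 CPM in vehicle samples. These 3 markers are named because they separate the groups. That vehicle 1 and vehicle 4 lie below every Visudyne sample in them follows from that choice. In vehicle 1, at a marker sum of 177 CPM, Col1a1 was 10.4 CPM, Col6a2 5.72 CPM and Col12a1 10.8 CPM. In Visudyne 9, at a lower marker sum of 157 CPM, Col1a1 was 20.5 CPM, Col6a2 9.32 CPM and Col12a1 19.1 CPM. These samples had the highest vehicle sum and the lowest Visudyne sum. In these 3 genes every Visudyne value exceeds every vehicle value, so any such pair has this order. In vehicle 13, at 80.3 CPM of markers, Col1a1 (5.86 CPM), Col1a2 (10.5 CPM), Col3a1 (2.46 CPM) and Col6a2 (4.42 CPM) were at their lowest. Col12a1 (10.4 CPM) lay there within the range of the other vehicle samples. How much of the collagen difference goes with the number of fibroblasts was not tested.

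**Figure D4:**
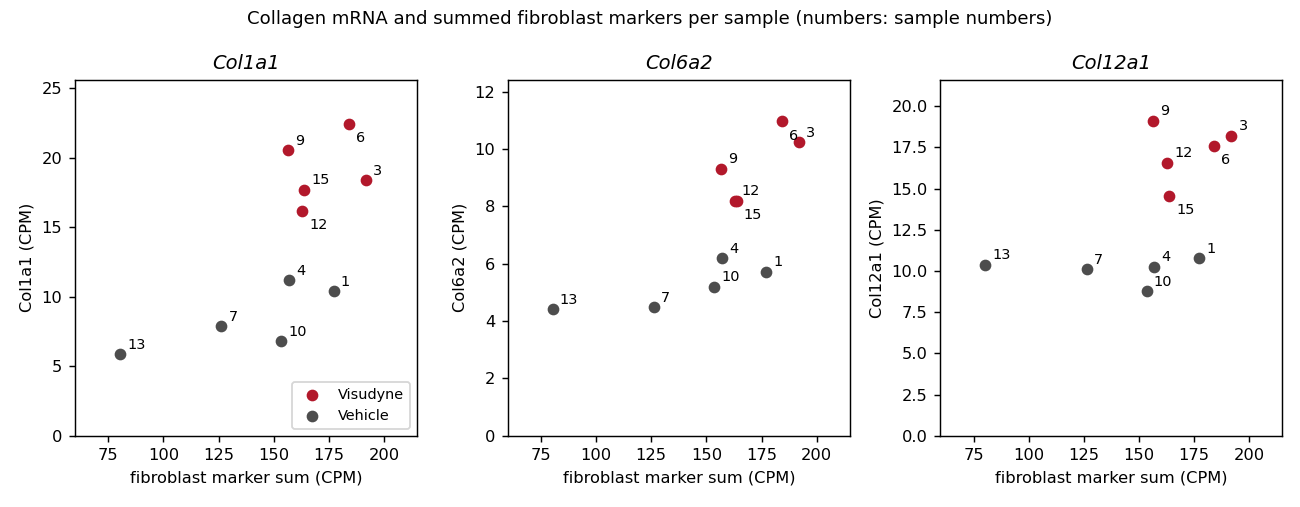
CPM of Col1a1, Col6a2 and Col12a1 against the summed CPM of 21 fibroblast markers in each sample, numbered by sample. By the summed markers, vehicle 1 lies inside the range of the Visudyne samples and vehicle 4 at its lower end (157 CPM, lowest Visudyne sum 156.5 CPM). The 3 genes are those called, and in each of them every vehicle sample lies below every Visudyne sample.

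Markers of other cell types, several of which make collagens, were not called. Markers of pericytes and smooth muscle summed to 131 to 172 CPM in Visudyne samples and 128 to 181 CPM in vehicle samples, with 2 of 12 above 0 and a median of -0.09. The smooth muscle gene Myh11 had a log2 fold change of -0.53 (SE 0.25) and Tagln had -0.30 (SE 0.21), while Anpep, a pericyte peptidase, had a log2 fold change of 0.64 (SE 0.20). Astrocyte markers summed to 4302 to 5116 CPM in Visudyne samples and 4413 to 5013 CPM in vehicle samples. Markers of the choroid plexus, the secretory tissue of the ventricles, summed to 27.4 to 54.3 CPM in Visudyne samples and 29.4 to 222 CPM in vehicle samples. Of these sums, Kl alone held 17.5 to 20.4 CPM in Visudyne samples and 20 to 27.9 CPM in vehicle samples. The highest of these sums was that of vehicle 7, with 179 CPM of Ttr, while the other 9 samples had at most 27.2 CPM. Without vehicle 7 the log2 fold changes were 1.15 for Col1a1, 0.77 for Col12a1 and 0.80 for Col6a2, and none of these genes was called in that fit. In each of these 3 lists 0 markers were called by edgeR, DESeq2 or limma voom. At an unadjusted edgeR p under 0.05 there was 1 pericyte and smooth muscle gene, Anpep, which was higher. There were 0 astrocyte genes and 1 choroid plexus gene, Kl, which was lower (log2 fold change -0.23, SE 0.08). Of all genes, 1.14% were higher and 0.56% lower at that p.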

How the data were processed

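RNA of the whole hippocampus was sequenced from Illumina stranded total RNA libraries, per the labels. The deposited values are estimated counts per Ensembl gene, which the authors made with Salmon against mm10, per the submitters' processing notes; versions and annotation release are not stated there. They are whole numbers, and a gene's total is at least 2. GENCODE M21 gave symbols for 28564 of 28871 identifiers, positions and exon lengths.

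Treatment groups were compared in one fit of all 10 samples with edgeR 4.0.16 (quasi-likelihood, R 4.3.3), the filterByExpr filter, TMM factors of 0.947 to 1.069 and Benjamini-Hochberg adjustment over 19093 genes. SEs come from the F statistic. Every pair of the 10 libraries differed beyond counting noise, by a chi-square of 9.39 to 66.7 times its degrees of freedom over 45 pairs, so none was merged. The members, lists and alternatives were chosen with earlier results of these data known. Sample values are printed for collagens that passed the threshold or whose groups do not overlap, for the highest 2 of each class per kilobase, and for chains that share a trimer with these. The 3 genes of smallest p are named from each pathway list; Col10a1, Col5a2 and Col5a1 were added after their values were seen.

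The fit was tested on simulated data with the means and depths of this comparison (19093 genes), with 50 genes raised or lowered at each fold. It found 20% of changes of 1.25-fold, 50% of those of 1.5-fold, 70% of 2-fold ones and 88% of 3-fold ones. Of its calls 7.32% were false. The simulated data gave 123 calls and the real data 4, so these shares may be too high for the real data. The alternatives were other scaling (relative log expression, upper quartile), other filters (none, 1 CPM in 5 samples), DESeq2 1.42.0, limma 3.58.1 (voom, plain or weighted), a sample number covariate, and each sample left out.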

Additional observations from a re-analysis of the deposited data

Results flagged for a closer look

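Within groups of 5 samples, a sample was singled out where its gap to the nearest other sample exceeded 0.71 of the group's range (Dixon's criterion). Of 88 groups over the 44 collagen genes 3 held such a sample, and chance alone gives about 5% of groups. Col25a1 measured 97.9 CPM in Visudyne 12, where the other Visudyne samples had 67.8 to 74.6 CPM. Col2a1 measured 0.534 CPM in vehicle 10, where the other vehicle samples had 0.874 to 0.998 CPM. Col26a1 measured 2.71 CPM in vehicle 4, where the other vehicle samples had 1.77 to 1.98 CPM. Among the class and list sums, the choroid plexus markers of vehicle 7 came to 222 CPM, where the other vehicle samples had 29.4 to 45.1 CPM. None of the 5 collagens whose groups do not overlap held such a sample.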

How the results depend on the processing

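Precision was limited by 5 samples per group and, for Col6a5, Col10a1 and other low genes, by counts. The number of genes called in the whole table (4) was 2 with upper-quartile factors, 18 with DESeq2, 13 with limma voom and sample quality weights and 19 with the sample number as covariate. The number of collagens called (3) was 1 with upper-quartile factors, 5 with DESeq2, 5 with the sample number and 2 (Col6a2 and Col12a1) with a filter of 1 CPM in 5 samples. Leaving out each sample in turn gave 0 to 5 genes and 0 to 3 collagens, and the median log2 fold change of the collagens, 0.096, was then 0.065 to 0.187. It was 0.179 with that filter, which left 34 collagens. The causes were not tested. Over 18 alternatives, 57 of 782 values of single collagens changed sign, all in 19 genes with a log2 fold change within 0.16 of 0, and none was a called gene. No paired analysis was possible because the groups share no sample number in the labels, which do not say whether neighbouring numbers mark a set.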
